A study of Mus musculus with 23 samples.

Results

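Docetaxel, a taxane used against prostate cancer, was compared with media in mouse tumours whose hosts had received a vector for the cytokine IL-27. The members were chosen by their labels, as the ex vivo docetaxel libraries (docetaxel 1 and docetaxel 2) and the ex vivo media libraries (media 1 and media 2) under the IL-27 vector (IL27v). They are 4 of the 23 bulk RNA libraries of the series. All tumours grew in the flanks of male C57/BL6 mice aged 8 to 10 weeks, from TC2Ras cells. TC2Ras is the TRAMP-C2 mouse prostate adenocarcinoma line after lentiviral transfer of an activated H-ras, so docetaxel and media tumours alike carry that oncogene. Every host of these 4 libraries received 10 µg of the pTSTA-IL27pepL plasmid per muscle, put into the tibialis anterior by sonoporation. Sonoporation uses ultrasound and microbubbles to let DNA into cells, and the plasmid encodes IL-27 joined to a short peptide. The comparison libraries of the empty vector (EV) came from hosts given pTSTA-ctrl in the same way. The other IL27v libraries are 7, exposed ex vivo to anti-PD-L1, cabozantinib (a kinase inhibitor), the cytokine itself, or the last 2 combined. The sources used here do not give the docetaxel concentration or the time of exposure. Nothing states that the replicates came from separate animals or tumours, so the spread behind each p-value is that between libraries and may be technical.

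Docetaxel binds beta-tubulin inside microtubules and stabilises them, which disturbs the mitotic spindle. Cells also adjust tubulin mRNA to the pool of free tubulin. When free subunits are plentiful, the protein TTC5 binds the first residues of a nascent tubulin chain and marks its mRNA for decay, and when subunits are held in polymer the mRNA lasts longer. This control is known from mammalian cell lines. Bulk RNA from a tumour section also holds RNA of stroma, vessels, infiltrating leukocytes and neighbouring tissue, and fewer cells of a type and less RNA per cell cannot be told apart.

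The library totals were 47641781 and 60541211 counts in docetaxel 1 and 2, and 65846816 and 68415610 in media 1 and 2. Levels are given as CPM, counts scaled to the size of the library, after TMM scaling, where 1 CPM stood for 36.3 and 62.5 counts in docetaxel and for 67.3 and 67.0 counts in media. Several features of these libraries moved with the groups, and their part in the results was not tested. The sources used here do not say whether these libraries were prepared together, and an exchange of samples was not tested, so each value belongs to the libraries labelled docetaxel and media. The ribosomal RNA gene CT010467.1 held 27.2% and 1.09% of the counts in docetaxel 1 and 2, against 0.0823% and 0.29% in media 1 and 2. The summed level of 14 skeletal muscle markers was 28.7 and 946 CPM in docetaxel and 718 and 581 CPM in media, against 625 to 983 CPM in the other IL27v libraries and a median of 3.40 CPM in the EV libraries. Of the 12 EV libraries 9 held at most 18.6 CPM, all docetaxel and media ones among them, and cabozantinib plus IL-27 1 and 2 and anti-PD-L1 2 held 568, 488 and 532 CPM. Those 3 also held 57.0, 52.1 and 53.1 CPM of neutrophil markers, against 64.5 and 76.0 CPM in IL27v media. Docetaxel 1 thus stood apart from the other 10 IL27v libraries in muscle RNA. Ngp, a neutrophil granule gene, was at 0 in docetaxel 1 and 2 and at 18.8 and 16.7 CPM in media 1 and 2, and it was at 0 in all 7 other IL27v libraries. The libraries also differed in how level followed base composition. Genes in the top quartile by GC content deviated from those in the bottom quartile by a median log2 difference of 0.436 and 0.373 in docetaxel, against -1.34 and -0.428 in media. Results are therefore also given with each library's GC trend removed, without each library, and against the other IL27v exposures, a comparison that uses no media library.

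Of 24440 genes tested, 683 (2.79%) differed between docetaxel and media in IL27v tumours (quasi-likelihood test of edgeR, p adjusted by Benjamini-Hochberg, threshold 0.05). Docetaxel was higher for 660 genes (2.70%) and lower for 23 genes (0.0941%). The 2 groups did not overlap for any of the 683, but neither did they for 45.1% of all genes tested, which is common with 2 libraries a side. At an unadjusted p under 0.05, 3645 genes passed. The median log2 fold change over all genes tested was 0. The count was 78 without media 1, 1060 without media 2, 123 without docetaxel 1 and 381 without docetaxel 2. With the GC trend removed it was 265, of which 217 were higher in docetaxel. Of the 660 genes that rose, 519 lie in the top quartile by GC content (53.8 to 78.3% GC), where 8.51% of genes rose, against 0.361% in the bottom quartile. In EV tumours the same contrast called 0 genes with edgeR and 32 with DESeq2, and 719 passed an unadjusted p under 0.05.

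**Figure D1:**
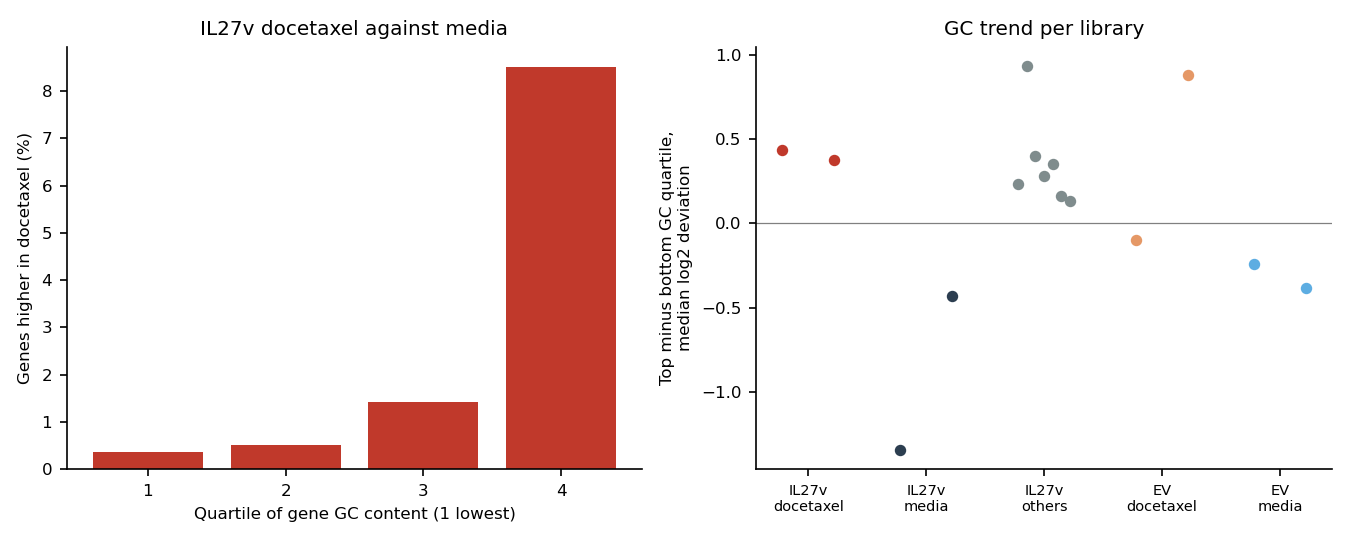
Left, the percentage of genes that rose in IL27v docetaxel against media (edgeR adjusted p under 0.05) in each quartile of genes by GC content. Right, each point is a library, and the vertical axis is the median log2 deviation of the top GC quartile minus the bottom quartile. The rise was called for 8.51% of genes in the top quartile, and both IL27v media libraries lie below both IL27v docetaxel libraries in GC trend.

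Tubulin transcripts, the mRNAs of docetaxel's target, were measured first. Of 12 alpha and beta tubulins tested, 4 rose and 0 fell, where 2.70% of all genes tested rose. A positive log2 fold change was seen for 11 of the 12, with a median of 1.09. Under EV the median was 1.17 with 0 called, and against the other IL27v exposures it was 0.592 with 3 called. The count of raised tubulins was 3 with the GC trend removed, 0 without media 1, 5 without media 2, 1 without docetaxel 1 and 1 without docetaxel 2. TTC5 acts on the start of the coding sequence, so the first 30 coding bases are shown for 11 of the 12, from the GENCODE transcripts of GRCm38. Capitals mark codons 2 to 4, which encode the residues TTC5 reads.
Tuba1a: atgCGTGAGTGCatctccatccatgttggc
Tuba1b: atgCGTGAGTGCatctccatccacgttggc
Tuba1c: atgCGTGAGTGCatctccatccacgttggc
Tuba4a: atgCGCGAGTGCatttcagtccatgtgggg
Tuba8: atgAGGGAATGCatatcggtccatgtgggt
Tubb2a: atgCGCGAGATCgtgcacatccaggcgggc
Tubb2b: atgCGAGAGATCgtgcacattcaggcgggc
Tubb3: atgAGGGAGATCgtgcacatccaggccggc
Tubb4a: atgCGGGAAATCgtgcacctgcaagccggt
Tubb4b: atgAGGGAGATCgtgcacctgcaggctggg
Tubb5: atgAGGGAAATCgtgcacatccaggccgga

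All 5 alpha tubulins shown have TGC as the fourth codon and all 6 beta tubulins shown have ATC. Tuba1a, Tuba1b and Tuba1c share 1 version of codons 2 to 4, and Tubb3 and Tubb4b share another.

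Among the beta tubulins, Tubb6 (chromosome 18, 67390717 to 67402749, GRCm38) was at 611 and 596 CPM in docetaxel, against 61.2 and 186 CPM in media. Both docetaxel libraries lay above both media libraries, and the log2 fold change was 2.29 ± 0.45 (SE; edgeR adjusted p = 0.0147). Its level in the other IL27v libraries ran from 266 to 499 CPM, above both media libraries and below both docetaxel libraries. Against those exposures the change was 0.64 ± 0.34 (edgeR adjusted p = 0.582). In EV tumours Tubb6 was at 477 and 774 CPM with docetaxel and 248 and 245 CPM with media. The pair Tubb2a and Tubb2b lies side by side on chromosome 13 (34074274 to 34078007 and 34126748 to 34130466), and close copies of this kind can share reads. Tubb2a was at 91.1 and 123 CPM in docetaxel and 11.6 and 37.9 CPM in media (log2 2.11 ± 0.50, edgeR adjusted p = 0.0334). Tubb2b was at 35.9 and 70.9 CPM in docetaxel and 7.18 and 13.0 CPM in media (log2 2.41 ± 0.53, edgeR adjusted p = 0.0229). Both also exceeded the other IL27v exposures, by 1.69 ± 0.36 for Tubb2a (edgeR adjusted p = 0.0272) and 1.70 ± 0.38 for Tubb2b (edgeR adjusted p = 0.0321). With the GC trend removed, Tubb6, Tubb2a and Tubb2b kept their calls at 1.58, 1.68 and 2.40 on the log2 scale.

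The alpha tubulin Tuba8, a minor form in most tissues, was at 23.2 and 31.9 CPM in docetaxel, against 0.921 and 1.60 CPM in media and at most 3.16 CPM in the other IL27v libraries. Its rise was 4.45 ± 1.11 against media (edgeR adjusted p = 0.0421) and 3.92 ± 0.73 against the other exposures (edgeR adjusted p = 0.0114). The call against media was lost in each of the 4 fits that left out 1 of these libraries, while the log2 fold change ran from 4.17 to 4.90. The abundant alpha tubulins did not pass the test. Tuba1b was at 1116 and 1200 CPM in docetaxel and 828 and 1419 CPM in media, with overlapping groups. Tuba1a was at 575 and 971 CPM in docetaxel and 371 and 601 CPM in media (log2 0.67 ± 0.36, edgeR adjusted p = 0.413). Among the other beta forms, Tubb4b was at 376 and 438 CPM in docetaxel and 99.4 and 252 CPM in media (log2 1.21 ± 0.42, edgeR adjusted p = 0.153). Tubb3, the neuronal beta tubulin, was at 72.7 and 48.6 CPM in docetaxel and 7.53 and 34.1 CPM in media (edgeR adjusted p = 0.223). Tubb4a was the exception in sign, with 2.01 and 5.60 CPM in docetaxel and 2.66 and 13.4 CPM in media. Without media 2 its sign turned to 0.52. Ttc5 itself was at 16.2 and 20.6 CPM in docetaxel and 18.4 and 22.4 CPM in media (log2 -0.15 ± 0.28, edgeR adjusted p = 0.866).

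**Figure D2:**
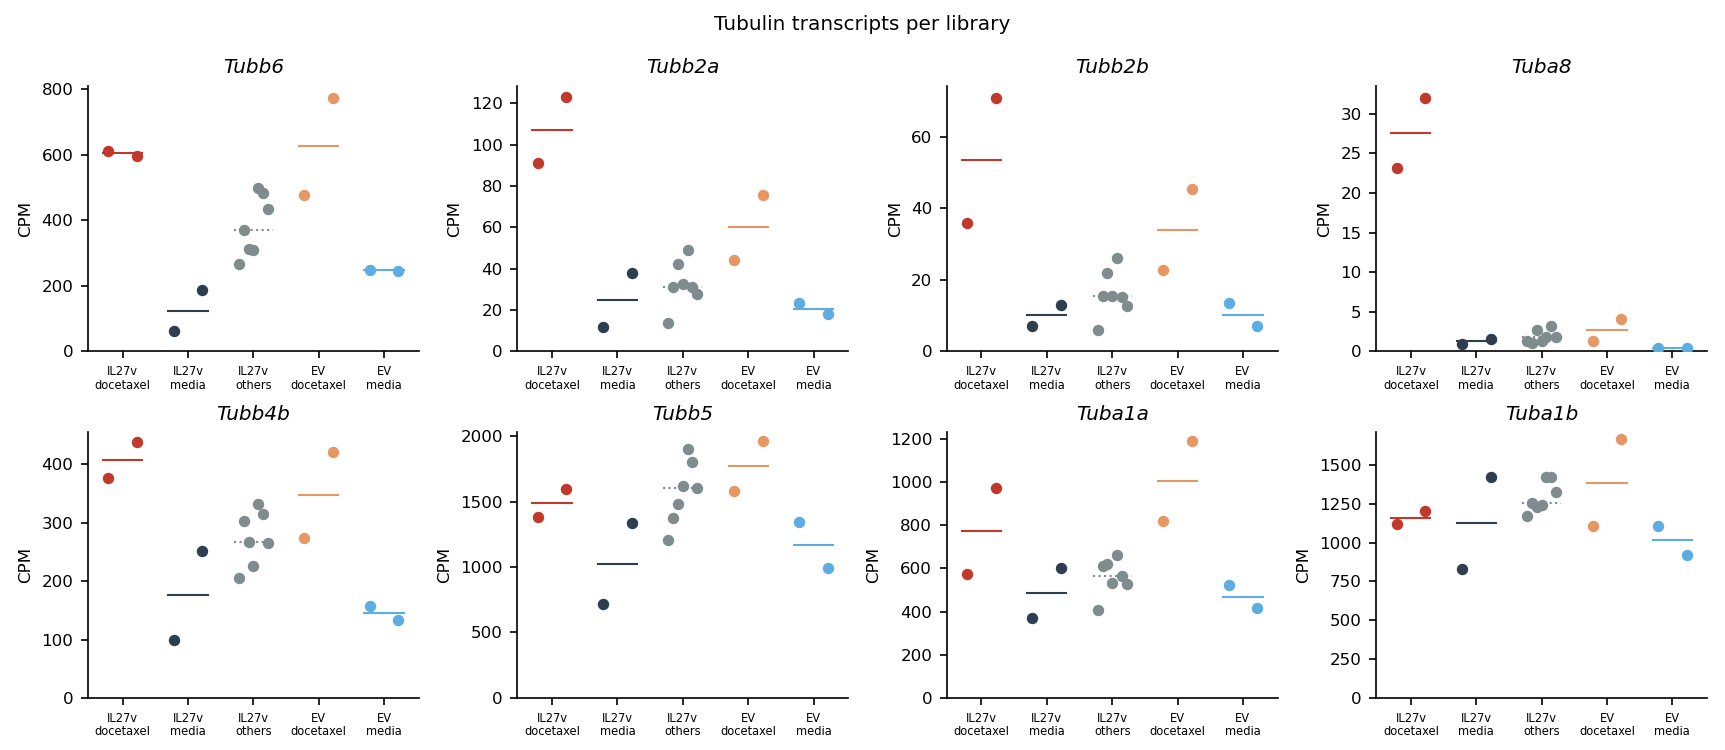
Each point is a library, and the vertical axis is the TMM-scaled level in CPM from 0. Solid lines are means of 2 libraries, and the dotted line is the median of the 7 other IL27v libraries. Tubb6, Tubb2a and Tubb2b are higher in both docetaxel libraries than in both media libraries under either vector, while Tuba8 reaches 23.2 and 31.9 CPM in IL27v docetaxel and Tuba1b overlaps.

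Among the other proteins that handle tubulin or the drug, 1 gene of each list rose, where 2.70% of all genes tested did. Of 23 tubulin folding factors and microtubule regulators 1 rose, Tbcc, the tubulin folding cofactor C, at 17.3 and 6.99 CPM in docetaxel and 1.09 and 1.76 CPM in media (edgeR adjusted p = 0.0162). Of 8 drug efflux and taxane metabolism genes 1 rose, Abcc10, a transporter known to export taxanes, at 4.94 and 4.30 CPM in docetaxel and 0.416 and 0.821 CPM in media (edgeR adjusted p = 0.0307). Both calls were lost with the GC trend removed (log2 1.06 for Tbcc and 1.89 for Abcc10), without media 1 and without docetaxel 1, and that of Abcc10 also without docetaxel 2. With 1 library left out the log2 fold change ran from 2.29 to 3.602 for Tbcc and from 2.56 to 3.47 for Abcc10. The P-glycoprotein genes did not pass. Abcb1a was at 11.1 and 13.1 CPM in docetaxel and 6.46 and 5.33 CPM in media, and Abcb1b at 87.0 and 86.5 CPM in docetaxel and 109 and 92.6 CPM in media.

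Spindle genes did not pass the test. Of 28 mitosis and spindle genes 0 were called (edgeR; 4 higher and 5 lower at an unadjusted p under 0.05), with a median log2 fold change of -0.23. Plk1, a mitotic kinase, was at 58.5 and 60.1 CPM in docetaxel and 23.5 and 36.6 CPM in media (edgeR adjusted p = 0.116). Top2a, the topoisomerase of dividing cells, lay the other way, at 245 and 283 CPM in docetaxel and 768 and 452 CPM in media (log2 -1.21 ± 0.39, edgeR adjusted p = 0.12). Ccnb1, the mitotic cyclin, was at 99.9 and 95.1 CPM in docetaxel and 160.0 and 124 CPM in media, and Mki67, a proliferation marker, at 122 and 167 CPM in docetaxel and 328 and 140 CPM in media. The Mki67 difference took the opposite sign without media 1 (log2 0.12). Of 23 replication and S phase genes 2 rose, and the number was 1 with the GC trend removed and 0 without media 1 or without docetaxel 1. Cdt1, which licenses replication origins, was at 122 and 69.3 CPM in docetaxel and 7.39 and 18.2 CPM in media (log2 2.90 ± 0.54, edgeR adjusted p = 0.0099). Pold1, a DNA polymerase subunit, was at 41.1 and 41.4 CPM in docetaxel and 3.33 and 9.01 CPM in media (edgeR adjusted p = 0.0154). Both were as high in the other IL27v libraries, where Cdt1 ran from 79.2 to 95.4 CPM and Pold1 from 47.1 to 63.3 CPM.

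Of 20 p53 targets 4 rose, and the count was 1 with the GC trend removed, 0 without media 1, 2 without media 2, 0 without docetaxel 1 and 2 without docetaxel 2. Cdkn1a and Mdm2, the best known targets, did not pass. Cdkn1a, the p21 cell cycle inhibitor, was at 262 and 352 CPM in docetaxel and 219 and 156 CPM in media (log2 0.71 ± 0.33, edgeR adjusted p = 0.327), and Mdm2 was at 103 and 119 CPM in docetaxel and 152 and 133 CPM in media. The 4 raised members were Perp, Sesn2, Bbc3 and Gdf15, where 2.70% of all genes tested rose. Perp, which is also a component of desmosomes in stratified epithelia, was at 261 and 314 CPM in docetaxel and 6.23 and 0.463 CPM in media (log2 6.42 ± 1.40, edgeR adjusted p = 0.022). Sesn2, a stress-induced regulator of growth signalling, was at 58.8 and 52.1 CPM in docetaxel and 26.0 and 26.2 CPM in media (edgeR adjusted p = 0.0224), but its log2 value turned to -0.38 with the GC trend removed. Bbc3, which encodes the death factor PUMA, was at 5.71 and 3.25 CPM in docetaxel and 0 and 0.164 CPM in media (edgeR adjusted p = 0.0194). Gdf15, a stress-induced secreted factor, was at 4.06 and 0.848 CPM in docetaxel and 0 in both media libraries, at least 54.9-fold higher against a floor of 3 counts per library (edgeR adjusted p = 0.0194). Of 14 BCL2 family genes 0 were called by edgeR, with 2 higher and 1 lower at an unadjusted p under 0.05.

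The largest increases included genes of cornified envelopes. In cornifying stratified epithelium, the tissue of epidermis and its appendages, small proline-rich (Sprr) and late cornified envelope (Lce) proteins are cross-linked under the membrane of the outermost cells, and keratin pairs mark its layers. The 12 largest increases by the naming rule, which takes genes with an annotated symbol, all had 0 counts in both media libraries, so only lower bounds of the fold can be given, against 3 counts per library. Crct1, a gene of the same chromosome region as the Lce genes, was at 344 and 29.8 CPM in docetaxel and was at least 4180-fold higher. Lce3d was at 210 and 38.3 CPM in docetaxel (at least 2772-fold higher), and Lgals7, the keratinocyte galectin-7, at 24.8 and 71.9 CPM (at least 1082-fold higher). Csta1, of the stefin A protease inhibitors, was at 60.3 and 70.8 CPM (at least 1466-fold higher), and Ly6d, a surface protein of squamous epithelium, at 56.1 and 64.5 CPM (at least 1350-fold higher). The remaining 7 were Lce3c, Lce3f, Trex2, Urah, Gm11597, 2310046K23Rik and 2310050C09Rik. The edgeR adjusted p of the 12 ran from 0.0114 for Lgals7 to 0.0441 for Lce3c. Csta1, Ly6d, Lce3c, Lce3f, Trex2, Urah, Gm11597 and 2310050C09Rik lost their calls in every fit without 1 docetaxel or media library. Those of Crct1, Lce3d, Lgals7 and 2310046K23Rik held in only some of these fits. The fitted log2 values there ran from 13.99 to 17.53 for Crct1 and from 13.81 to 15.92 for Lce3c. They rest on 0 counts in media, so they are not estimates of the fold. In the other IL27v libraries the highest value of any of the 12 was 24.9 CPM, for Lce3d. ENSMUSG00000118642, a gene without a symbol in the annotation and so outside the rule, was at 2070 and 45.2 CPM in docetaxel and 0.0149 and 0.0448 CPM in media (log2 15.03 ± 2.03, edgeR adjusted p = 0.00199).

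Many of these genes lie together on chromosome 3 in the epidermal differentiation complex. Between the start of S100a1 and the end of S100a10 (chromosome 3, 90511034 to 93564643, GRCm38), 78 genes were tested, 24 rose and 0 fell. That is 30.8% of the genes there, against 2.70% of all genes tested, and the interval was chosen after its values were seen. The 24 were 10 Sprr genes, 6 Lce genes, 1 S100 gene and 7 others. Those others include Flg, the barrier protein filaggrin, at 6.35 and 38.6 CPM in docetaxel and 0 in both media libraries (at least 502.9-fold higher, edgeR adjusted p = 0.0191), and Kprp, a keratinocyte proline-rich protein, at 95.9 and 39.0 CPM in docetaxel and 0.609 and 0.403 CPM in media (edgeR adjusted p = 0.00426). Against the other IL27v exposures 35 of the 78 rose, where 1.25% of all genes tested did.

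Gene families were defined by symbol prefix after the calls were seen, so their shares are descriptive. Within the Sprr family 10 of 16 tested genes rose. Their summed level was 3962 and 3211 CPM in docetaxel and 160.4 and 54.3 CPM in media. The family was not silent elsewhere, since its sum reached 867 CPM in the other IL27v libraries and 2395 CPM in an EV library. Sprr1b (ENSMUSG00000048455, chromosome 3, 92436809 to 92438789) was at 582 and 222 CPM in docetaxel and 0.149 and 0 CPM in media (log2 12.36 ± 1.58, edgeR adjusted p = 0.00199). Sprr2g was at 118 and 128 CPM in docetaxel and 0.0743 and 0 CPM in media (log2 11.62 ± 1.37, edgeR adjusted p = 0.00199). Sprr1a differed less, at 1396 and 1015 CPM in docetaxel and 51.5 and 8.98 CPM in media (log2 5.32 ± 0.90, edgeR adjusted p = 0.00629). Sprr2d was at 411 and 291 CPM in docetaxel and 0.446 and 3.57 CPM in media, and Sprr2h at 743 and 407 CPM in docetaxel and 87.0 and 26.99 CPM in media. Sprr2a1 and Sprr2a2 had nearly the same values in each library, and their annotations overlap, so they cannot be counted as separate genes with certainty. Within the Lce family 6 of 21 tested genes rose, and for all 21 both docetaxel libraries exceeded both media libraries, as they did for 5623 of all 24440 genes tested. The summed Lce level was 930.4 and 232 CPM in docetaxel and 0.312 and 0.284 CPM in media.

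Sprr genes moved together, so the 250 bases before the RefSeq start are shown for 4 of them (RefSeq promoters, GRCm38.p6). They were searched on both strands for the AP-1 letters TGACTCA or TGAGTCA, which are reverse complements, and matches are in capitals. The windows are chr3:92485882-92486131 (minus strand) for Sprr1a, chr3:92338890-92339139 (plus) for Sprr2d, chr3:92385435-92385684 (plus) for Sprr2h and chr3:92438780-92439029 (minus) for Sprr1b.
Sprr1a: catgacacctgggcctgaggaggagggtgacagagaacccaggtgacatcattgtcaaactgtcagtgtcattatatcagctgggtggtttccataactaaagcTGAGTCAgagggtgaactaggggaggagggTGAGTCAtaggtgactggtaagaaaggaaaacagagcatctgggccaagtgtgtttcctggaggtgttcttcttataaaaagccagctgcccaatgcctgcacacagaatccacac
Sprr2d: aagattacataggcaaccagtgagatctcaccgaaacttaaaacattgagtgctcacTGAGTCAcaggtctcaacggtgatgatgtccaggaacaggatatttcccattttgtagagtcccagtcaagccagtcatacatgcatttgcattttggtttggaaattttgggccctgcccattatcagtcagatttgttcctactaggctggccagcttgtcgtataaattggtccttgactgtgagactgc
Sprr2h: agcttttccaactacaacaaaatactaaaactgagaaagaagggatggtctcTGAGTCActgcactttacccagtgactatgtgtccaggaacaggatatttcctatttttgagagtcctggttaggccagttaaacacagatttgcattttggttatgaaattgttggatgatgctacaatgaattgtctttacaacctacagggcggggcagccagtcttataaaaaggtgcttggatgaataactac
Sprr1b: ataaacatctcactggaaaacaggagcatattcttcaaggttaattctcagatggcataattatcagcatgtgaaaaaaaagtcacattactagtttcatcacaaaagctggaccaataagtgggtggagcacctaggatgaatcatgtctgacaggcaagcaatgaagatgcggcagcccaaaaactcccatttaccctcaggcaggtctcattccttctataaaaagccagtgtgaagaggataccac

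Sprr1a holds 2 matches, which begin 146 and 116 bases before the start. Sprr2d holds 1 at 193 bases and Sprr2h 1 at 198 bases, and Sprr1b holds none in this window. The letters occur in 4.43% of all 27025 promoter windows of the table, in 3.81% of 14349 windows of genes tested and in 3.01% of 499 windows of genes that rose. Of the Sprr genes tested with a window 8 of 14 hold them, of the Lce genes 0 of 20 and of the keratins 0 of 29. Within the Sprr family, 5 of 9 raised genes and 3 of 5 genes that were not called hold a match. For 15 of the 16 Sprr genes tested both docetaxel libraries exceeded both media libraries. The split by call therefore cannot show whether the letters go with a rise.

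Keratins followed the same libraries. Of 12 keratinocyte markers 6 rose and all 12 had positive log2 values, with a median of 9.28, or 8.89 with genes at 0 in media set to their bound. The number that rose was 3 with the GC trend removed, 1 without media 1, and 3 without each of media 2, docetaxel 1 and docetaxel 2. The summed level of the 12 was 4255 and 4352 CPM in docetaxel and 21.0 and 2.05 CPM in media. In the other IL27v libraries the sum was 764 CPM in anti-PD-L1 1 and had a median of 13.7 CPM, and it did not exceed 8.45 CPM in EV. Krt16, a keratin of activated epidermis, was at 693 and 620 CPM in docetaxel and 2.26 and 0.657 CPM in media (log2 8.81 ± 1.91, edgeR adjusted p = 0.0231). Its partner Krt6b was at 554 and 756 CPM in docetaxel and 0.535 and 0 CPM in media (edgeR adjusted p = 0.0252). Krt10, of the suprabasal layers, was at 14.3 and 47.8 CPM in docetaxel and 0.817 and 1.33 CPM in media (log2 4.85 ± 0.71, edgeR adjusted p = 0.00301).

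The basal keratins Krt5 and Krt14 were as high in docetaxel but did not pass against media. Krt14 was at 960.2 and 862 CPM in docetaxel and 2.39 and 0 CPM in media (edgeR adjusted p = 0.0684), and Krt5 at 213 and 410.4 CPM in docetaxel and 4.52 and 0 CPM in media (edgeR adjusted p = 0.127). Both passed against the other IL27v exposures, Krt14 by 7.53 ± 1.67 (edgeR adjusted p = 0.0356) and Krt5 by 6.99 ± 1.55 (edgeR adjusted p = 0.0426). In that comparison 10 of the 12 keratinocyte markers rose. The simple epithelial markers of the label prostate adenocarcinoma were low in media. Cdh1, which encodes E-cadherin, was at 71.9 and 92.3 CPM in docetaxel and 3.02 and 0.583 CPM in media (edgeR adjusted p = 0.119), and Epcam at 15.5 and 18.7 CPM in docetaxel and 0.401 and 0 CPM in media (edgeR adjusted p = 0.18). Krt18 did not exceed 2.51 CPM in any of the 4. Vim, the mesenchymal filament gene, was at 3933 and 5573 CPM in docetaxel and 2595 and 4979 CPM in media, so a mesenchymal marker was abundant in all 4 libraries. The part of the keratinocyte markers in the other differences was not tested.

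**Figure D3:**
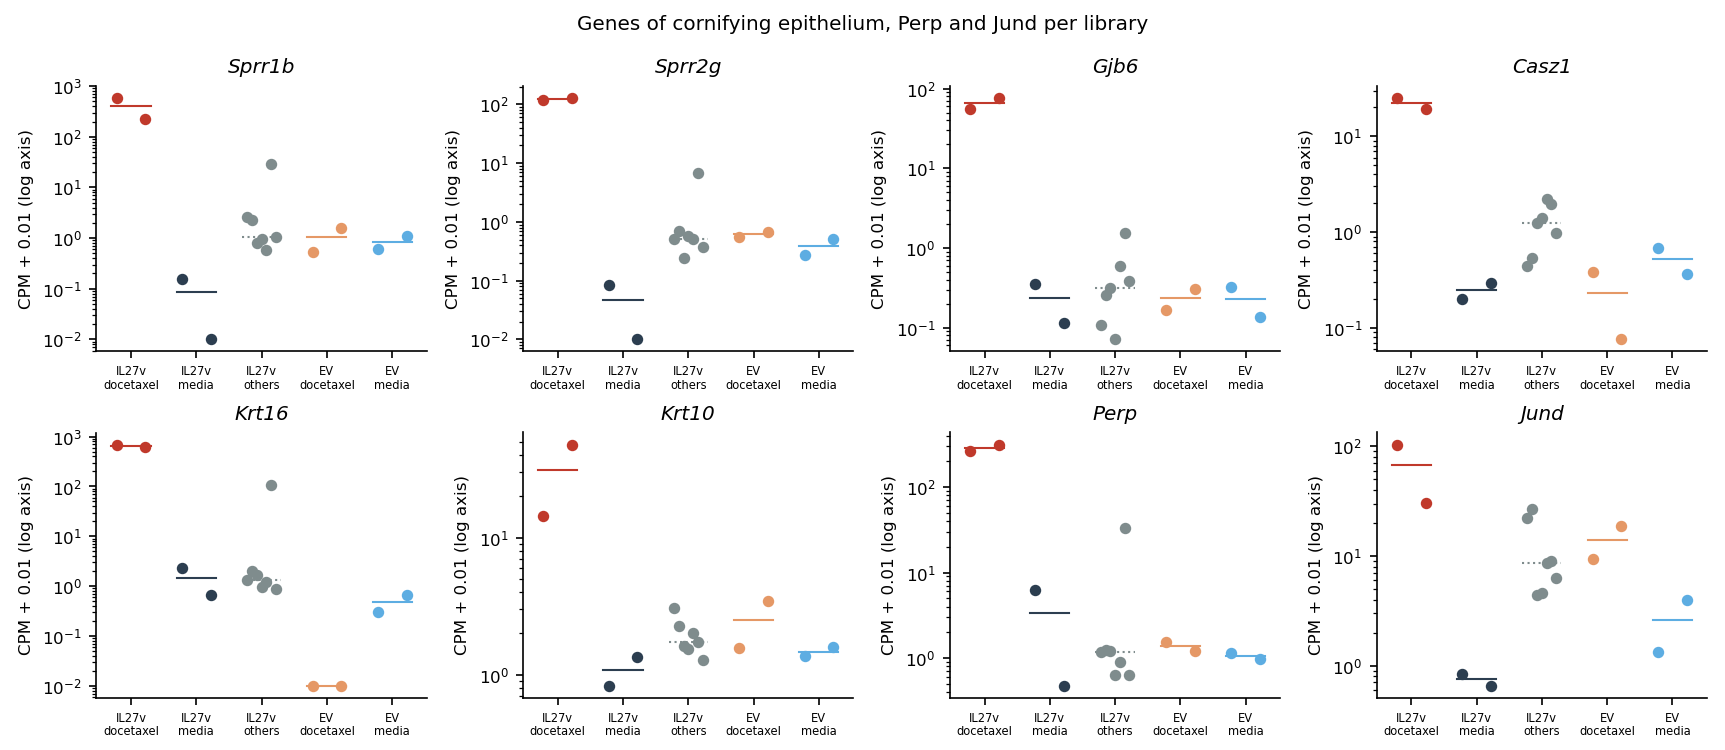
Each point is a library, and the vertical axis is CPM plus 0.01 on a log scale. Solid lines are means of 2 libraries, and the dotted line is the median of the 7 other IL27v libraries. Sprr1b, Sprr2g, Gjb6, Krt16 and Perp are high in both IL27v docetaxel libraries, with 1 other IL27v library, anti-PD-L1 1, between them and the rest.

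A smaller group of genes held its call across several of the settings tried, and it was picked after those calls were seen. The fit with only the 4 libraries compared was not among these settings. Of the 683 genes, 31 were called in each of the 4 fits without 1 docetaxel or media library, all of them higher in docetaxel. Of these, 23 were also called with the GC trend removed and with replicate number as a block. Against the other IL27v exposures 17 of the 23 were called. Those not called there include Sprr1a, Llgl2 and Sf3b4 (edgeR adjusted p = 0.0726, 0.229 and 0.939). The 23 include Sprr1a, Sprr1b, Sprr2d, Sprr2f, Sprr2g and the pair Sprr2a1 and Sprr2a2. Junction and polarity genes of epithelia were among them. Jup, the desmosomal plakoglobin, was at 111 and 191 CPM in docetaxel and 4.04 and 1.30 CPM in media (log2 5.82 ± 0.76, edgeR adjusted p = 0.00199). Itgb4, the integrin chain of hemidesmosomes, was at 43.0 and 67.3 CPM in docetaxel and 0.936 and 0.986 CPM in media (log2 5.84 ± 0.82, edgeR adjusted p = 0.00243). Aqp3, an epidermal water and glycerol channel, was at 42.5 and 170.4 CPM in docetaxel and 3.21 and 1.94 CPM in media. Esrp2, an epithelial splicing regulator, was at 21.5 and 17.6 CPM in docetaxel and 0.832 and 0.642 CPM in media, and Llgl2, a cell polarity protein, at 11.9 and 14.6 CPM in docetaxel and 0.119 and 0.134 CPM in media. Krt80 was at 164 and 144 CPM in docetaxel and 7.41 and 15.7 CPM in media (log2 3.74 ± 0.50, edgeR adjusted p = 0.00199). Not all were epithelial. Sf3b4, a spliceosome subunit, was at 243 and 166 CPM in docetaxel and 29.2 and 45.7 CPM in media, and Gltp, a glycolipid transfer protein, at 172 and 125 CPM in docetaxel and 19.7 and 33.9 CPM in media.

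Immediate early and AP-1 genes, which encode rapidly induced transcription factors and their regulators, were higher in docetaxel. The median log2 fold change of the 19 tested was 1.76 against 0 over all genes. Of the 19, 11 rose and 0 fell, where 2.70% of all genes tested rose. The number was 7 with the GC trend removed, 1 without media 1, 12 without media 2, 7 without docetaxel 1 and 10 without docetaxel 2. Junb was at 281 and 182 CPM in docetaxel and 0.268 and 0.821 CPM in media (log2 8.73 ± 1.29, edgeR adjusted p = 0.00331). The other IL27v libraries held 47.6 to 174 CPM of Junb, above both media libraries and below both docetaxel libraries. Against those exposures the change was 1.21 ± 0.70 (edgeR adjusted p = 0.63). Jun was at 216 and 177 CPM in docetaxel and 24.6 and 26.5 CPM in media (log2 2.94 ± 0.45, edgeR adjusted p = 0.00383), with 62.8 to 139 CPM in the other IL27v libraries. Jund was at 104 and 30.2 CPM in docetaxel and 0.832 and 0.642 CPM in media (log2 6.50 ± 0.87, edgeR adjusted p = 0.00199), and it also passed against the other exposures, by 2.86 ± 0.51 (edgeR adjusted p = 0.00835). Ier2 was at 90.4 and 52.9 CPM in docetaxel and 0.431 and 1.97 CPM in media. Klf4, a factor needed for the epidermal barrier and named after its values were seen, was at 82.8 and 132 CPM in docetaxel and 5.53 and 14.9 CPM in media (edgeR adjusted p = 0.00679). It was at most 22.3 CPM in the other IL27v libraries, a difference of 2.82 ± 0.39 (edgeR adjusted p = 0.00142).

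Stress and metabolic lists held a few raised members each. Of 16 heat shock genes 3 rose (1 without media 1), while the list's median was -0.19. Hspa1a, an inducible HSP70, was at 70.6 and 36.9 CPM in docetaxel and 0.268 and 1.48 CPM in media (log2 5.94 ± 0.90, edgeR adjusted p = 0.00383). Against the other IL27v exposures Hspa1a was not called (edgeR adjusted p = 0.578). Its near-identical copy Hspa1b was at 254 and 112 CPM in docetaxel and 6.26 and 18.98 CPM in media, and reads may be split between them. Of 18 unfolded protein and integrated stress genes 3 rose, with a median of -0.04, and the number was 0 with the GC trend removed or without media 1 and 1 without docetaxel 1 or without docetaxel 2. Ddit4, an inhibitor of mTORC1 signalling, was at 131 and 171 CPM in docetaxel and 48.8 and 40.7 CPM in media (log2 1.75 ± 0.32, edgeR adjusted p = 0.00796), with 113 to 168 CPM in the other IL27v libraries. Its log2 value was 0.45 with the GC trend removed. Of 15 cholesterol synthesis genes 4 rose and all 15 had positive values, with a median of 0.665, and the number that rose was 1 with the GC trend removed, 0 without media 1 or without docetaxel 1, and 1 without media 2 or without docetaxel 2. Against the other IL27v exposures 0 of the 15 were called by edgeR. The list summed to 1797 and 1951 CPM in docetaxel, 1198 and 797.7 CPM in media, and 909.6 to 2146 CPM in those exposures. Srebf2, the transcription factor of the pathway, was at 279 and 274 CPM in docetaxel and 64.6 and 77.5 CPM in media (log2 1.96 ± 0.35, edgeR adjusted p = 0.00796). Slc2a1, the glucose carrier GLUT, was the 1 of 16 hypoxia and glycolysis genes that rose, at 477 and 690.4 CPM in docetaxel and 204 and 231 CPM in media, and its call was lost with the GC trend removed (log2 1.04 against 1.42), without media 1 and without docetaxel 2.

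Replication-dependent histone mRNAs mostly lack a poly(A) tail, so their level in a poly(A) library also depends on RNA selection. Of 9 tested 4 rose, and the number was 2 without docetaxel 1 and 2 without media 1. Hist1h1c was at 145 and 44.1 CPM in docetaxel and 5.71 and 7.06 CPM in media (log2 3.89 ± 0.48, edgeR adjusted p = 0.00199). Hist1h1e was at 22.2 and 1.33 CPM in docetaxel and 0.0892 and 0.209 CPM in media. Structural RNAs without a tail followed a like order. Rn7sk was at 110.4 and 6.06 CPM in docetaxel and 0.357 and 1.23 CPM in media, and docetaxel 1, the library with the most ribosomal RNA, was the highest in each. Of the 5 structural RNAs tested 3 rose, and 0 rose without docetaxel 1.

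**Figure D4:**
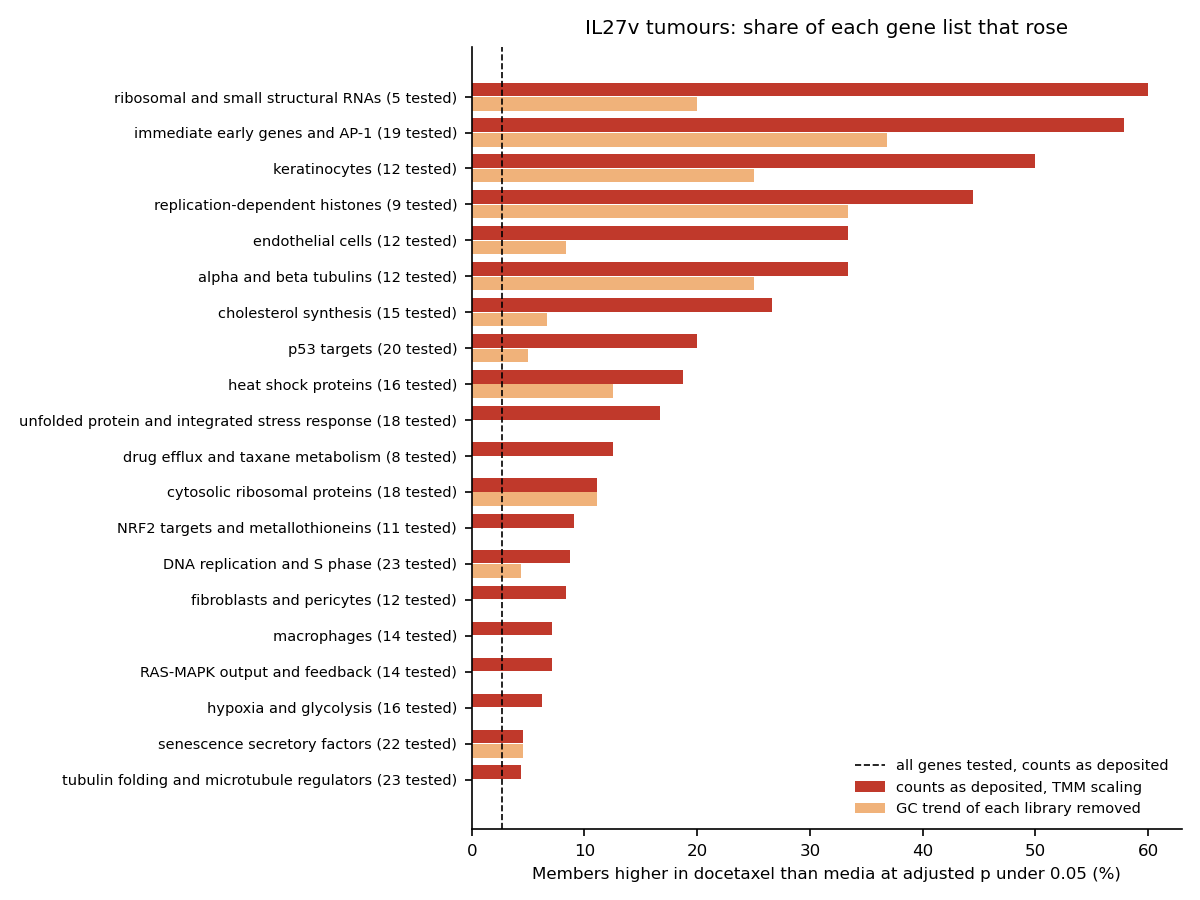
For each gene list with at least 1 raised member, the bars give the percentage of its tested members that rose in IL27v docetaxel against media (edgeR adjusted p under 0.05), with counts as deposited and with the GC trend of each library removed. The dashed line marks the 2.70% of all genes tested that rose. The immediate early, keratinocyte, tubulin and histone lists keep the largest shares among lists of 9 or more genes once the trend is removed.

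Among interferon-stimulated genes, 1 library set the difference. Type I interferon response genes (24) and interferon-induced GTPases (12) act in antiviral and intracellular defence. Their median log2 fold changes were -2.11 and -3.28, yet 0 members were called by edgeR, with 9 and 11 lower at an unadjusted p under 0.05. The type I list summed to 212 and 274 CPM in docetaxel 1 and 2, against 218 CPM in media 1 and 1778 CPM in media 2. The GTPases summed to 38.6 and 54.2 CPM in docetaxel, against 46.0 CPM in media 1 and 797 CPM in media 2. Media 1 therefore lay beside the docetaxel libraries and media 2 stood far above all 3. Without media 2 the medians were 0.432 and 0.0599. Ifit3, an antiviral effector, was at 4.99 and 8.89 CPM in docetaxel and 10.2 and 227 CPM in media (log2 -4.09 ± 1.46, edgeR adjusted p = 0.165). The other IL27v libraries spread as widely, from 124.5 to 1111 CPM for the type I list.

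Cytotoxic lymphocyte genes were also highest in media 2 of the 4 libraries. Cytotoxic lymphocyte markers summed to 7.37 and 9.63 CPM in docetaxel, against 6.81 CPM in media 1 and 104 CPM in media 2, and 0 of 11 were called by edgeR (0 higher and 3 lower at an unadjusted p under 0.05). Gzmb, which encodes granzyme B, a protease of killer cells, was at 0.662 and 2.42 CPM in docetaxel and 0.535 and 45.6 CPM in media, and its difference turned positive (log2 1.53) without media 2. Cxcl9, an interferon-induced chemokine for T cells, was at 1.71 and 0.896 CPM in docetaxel and 1.49 and 46.1 CPM in media. Cd274, which encodes PD-L1, was at 29.4 and 29.3 CPM in docetaxel and 20.7 and 95.2 CPM in media. MHC class I presentation genes, which display peptides from inside the cell, summed to 1162 and 1395 CPM in docetaxel and 619 and 2448 CPM in media. MHC class II presentation genes, which display peptides taken up from outside, summed to 127 and 181 CPM in docetaxel and 26.6 and 133 CPM in media, so here media 1 was the low library and media 2 lay between the docetaxel libraries. Of 13 class I and 7 class II genes, 0 were called by edgeR and 0 passed an unadjusted p under 0.05. T-cell markers were near the limit of detection, with a sum over 16 genes of 10.5 and 15.7 CPM in docetaxel and 4.70 and 12.1 CPM in media and with Cd3e at 0.359 and 0.416 CPM in docetaxel and 0.0743 and 0.284 CPM in media. The mouse genes of the IL-27 chains were barely seen in the tumours, and whether any of their reads came from the plasmid was not tested. Il27 was at 0 and 0.320 CPM in docetaxel and 0 in both media libraries, and Ebi3 was at 0.441 and 0.720 CPM in docetaxel and 0.0594 and 0.209 CPM in media. The vector had been given to the leg muscle and not to the tumour.

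Neutrophil markers split in opposite directions. S100a9, a calcium-binding protein of neutrophils and of activated keratinocytes, was at 154 and 162 CPM in docetaxel and 14.1 and 10.96 CPM in media (log2 3.66 ± 1.62, edgeR adjusted p = 0.296). The other IL27v libraries held at most 2.31 CPM of S100a9, and that difference of 8.00 ± 1.37 passed (edgeR adjusted p = 0.00784). Ngp was at 0 in docetaxel against 18.8 and 16.7 CPM in media (edgeR adjusted p = 0.0786), and Ltf, lactoferrin of neutrophil granules, at 0 and 0.0800 CPM in docetaxel and 13.5 and 10.8 CPM in media (edgeR adjusted p = 0.13). Of 13 neutrophil markers 0 were called by edgeR, with 1 higher and 3 lower at an unadjusted p under 0.05.

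**Figure D5:**
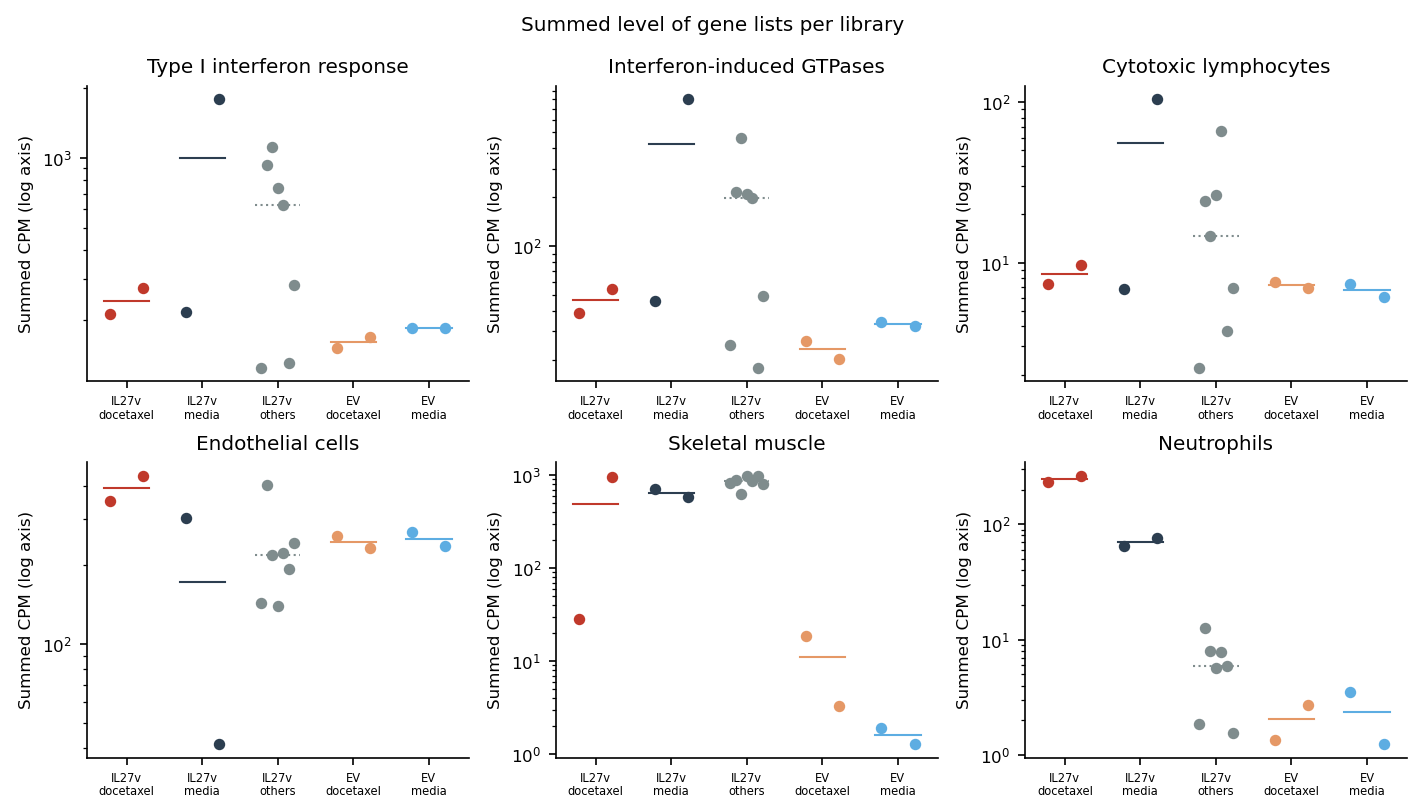
Each point is a library, and the vertical axis is the summed level of a gene list in CPM on a log scale. Solid lines are means of 2 libraries, and the dotted line is the median of the 7 other IL27v libraries. IL27v media 2 holds 1778 CPM of type I interferon response genes and 41.3 CPM of endothelial genes, each far from media 1, and docetaxel 1 holds 28.7 CPM of muscle genes.

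Vessel genes were higher in docetaxel for part of their list. Of 12 endothelial markers 4 rose, with a median of 1.67, and the number was 1 with the GC trend removed, 5 without media 1, 2 without media 2, 1 without docetaxel 1 and 2 without docetaxel 2. The list summed to 352 and 439 CPM in docetaxel and to 304 and 41.3 CPM in media, so media 2 was the low library. In the other IL27v libraries the sum ran from 139 to 406 CPM, and against those exposures 0 of the 12 were called by edgeR. Egfl7, a secreted protein of endothelium, was at 30.9 and 37.5 CPM in docetaxel and 3.05 and 1.23 CPM in media (log2 4.00 ± 0.74, edgeR adjusted p = 0.0097). Tie1, an endothelial receptor kinase, was at 19.8 and 19.2 CPM in docetaxel and 2.57 and 0.583 CPM in media (edgeR adjusted p = 0.0201). Of 12 fibroblast and pericyte markers 1 rose and 1 fell. Cspg4, the pericyte proteoglycan NG2, was at 6.95 and 6.06 CPM in docetaxel and 0.862 and 1.60 CPM in media (edgeR adjusted p = 0.0415). Lum, which encodes the collagen-binding lumican, fell to 27.1 and 32.0 CPM in docetaxel, against 63.3 and 97.8 CPM in media (log2 -1.45 ± 0.37, edgeR adjusted p = 0.0441). Both calls were lost with the GC trend removed (log2 0.97 for Cspg4 and -0.96 for Lum), with replicate number as a block, and without media 1, docetaxel 1 or docetaxel 2, and that of Lum also without media 2. With 1 library left out the log2 values ran from 2.09 to 2.91 for Cspg4 and from -1.66 to -1.10 for Lum.

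The 23 genes that fell were scattered over functions. Gzmd, a granzyme gene of a cluster of close copies, was at 0 in both docetaxel libraries against 1.23 and 5.36 CPM in media, at least 50.5-fold lower against 3 counts per library (edgeR adjusted p = 0.0194). Phex, an endopeptidase known from bone, fell to 5.52 and 8.19 CPM in docetaxel, against 38.4 and 43.0 CPM in media (log2 -2.57 ± 0.49, edgeR adjusted p = 0.0111). Gm26920, with no annotated role, was at 0.414 and 0.432 CPM in docetaxel and 9.09 and 5.35 CPM in media (log2 -4.09 ± 0.83, edgeR adjusted p = 0.0156). Mr1, which presents microbial metabolites to T cells, was at 4.61 and 7.34 CPM in docetaxel and 17.5 and 23.3 CPM in media (edgeR adjusted p = 0.0369). Gpx8, a peroxidase of the endoplasmic reticulum, was at 68.7 and 133 CPM in docetaxel and 241 and 272 CPM in media (log2 -1.34 ± 0.34, edgeR adjusted p = 0.0418). The other named decreases were Ogn, C030015A19Rik, Zcwpw1, Medag, Zfp429 and Zfp931. With the GC trend removed 4 of the 23 kept their call, and without docetaxel 1 none did.

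The docetaxel effect was then compared between vectors by a test of the difference itself. Of 24440 genes, 5 differed (0.0205%), all with a larger effect under IL27v, and 1504 passed at an unadjusted p under 0.05. They were Sprr1b, Sprr2g, Gjb6, Casz1 and Spns2. Gjb6, the gap junction protein connexin 30 (chromosome 14, 57123303 to 57133611), was at 55.5 and 76.1 CPM in docetaxel and 0.342 and 0.105 CPM in media under IL27v, and at 0.159 and 0.298 CPM in docetaxel and 0.317 and 0.127 CPM in media under EV. The difference of the log2 changes was 8.15 ± 1.26 (edgeR adjusted p = 0.0389). Casz1, a zinc-finger transcription factor, was at 25.1 and 19.1 CPM in docetaxel and 0.193 and 0.284 CPM in media under IL27v, and at 0.377 and 0.0663 CPM in docetaxel and 0.673 and 0.358 CPM in media under EV (difference 7.72 ± 1.08, edgeR adjusted p = 0.0259). Spns2, which exports sphingosine 1-phosphate, was at 18.5 and 18.9 CPM in docetaxel and 2.69 and 3.02 CPM in media under IL27v, and at 1.64 and 1.64 CPM in docetaxel and 3.35 and 3.34 CPM in media under EV (difference 3.74 ± 0.60, edgeR adjusted p = 0.0468). For Sprr1b the difference was 12.08 ± 1.77 (edgeR adjusted p = 0.0363) and for Sprr2g 10.97 ± 1.56 (edgeR adjusted p = 0.0259). The count was 0 without docetaxel 1, 61 without media 2, 15 without media 1 and 9 without docetaxel 2 of IL27v. It was also 0 without EV media 1, without EV media 2 or without EV docetaxel 2, and 2 without EV docetaxel 1. None of the tubulins was among the 5.

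Set against the 7 libraries of the other IL27v exposures, docetaxel was higher for 306 genes (1.25%) and lower for 6 (0.0245%), with 2251 past an unadjusted p under 0.05. This comparison shares the docetaxel libraries with the one against media, so the lists are not independent. The GC quartiles were closer here, with a median log2 fold change of 0.00775 in the bottom quartile and 0.0534 in the top quartile, against -0.473 and 0.87 for docetaxel against media. Of the Lce genes 14 of 21 rose, of the Sprr genes 9 of 16 and of the keratins 12 of 38, families defined after calls were seen. The largest increases by the rule were Lpo, Dsg1b, Lce3a, Slc26a4 and Crct1. Lpo, the lactoperoxidase gene, was at 71.4 and 6.51 CPM in docetaxel and at most 2.54 CPM in the other exposures, and Dsg1b, a desmosomal cadherin, at 74.9 and 23.4 CPM in docetaxel and at most 8.46 CPM in the others. Perp was higher by 7.16 ± 0.99 (edgeR adjusted p = 0.00126), with at most 32.9 CPM in the other libraries. The highest of the 7 for many of these genes was anti-PD-L1 1, which held 116 CPM of Krt5 and 28.9 CPM of Sprr1b. Among the decreases, Gzmd was called again (edgeR adjusted p = 0.0408), as were Gm26920 (log2 -3.70 ± 0.76, edgeR adjusted p = 0.0203) and Zfp429 (log2 -1.60 ± 0.36, edgeR adjusted p = 0.0368). The count of all calls was 76 without docetaxel 1 and 182 without docetaxel 2.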

How the data were processed

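The data are a single table of estimated counts per gene on GRCm38, as deposited by the authors. Per the labels' protocols, poly(A) libraries were made with a stranded kit from tumour sections with an RNA integrity number of at least 8 and sequenced in pairs. The tools were HISAT2, StringTie, cutadapt and DESeq2, per the submitters' processing notes. The sources used here do not give their versions, the counting step or its use of strand, so overlapping antisense genes are uncertain. The deposited counts are whole numbers, so rounding changed nothing, but for 143 genes all 23 libraries share 1 nonzero value. GENCODE gave a symbol to 55141 of 55401 identifiers.

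Counts were tested in R 4.3.3 with edgeR 4.0.16 (TMM, filterByExpr, quasi-likelihood test) in 1 model of the 12 groups, with 11 residual degrees of freedom; the biological coefficient of variation was 0.62. The code was tested on simulated data with a smaller spread than this and no GC trend, so that test checked the code and not these calls. SE is the absolute log2 fold change over the square root of F. Alternatives included DESeq2 1.42.0, other filters and scalings, and leaving out libraries. The members and the 41 gene lists (566 distinct genes) were chosen with earlier results of these data known. The naming rule took the 12 largest increases and decreases among called genes with an annotated symbol, a mean of at least 1 CPM and non-overlapping groups (5 in the other comparisons), at most 4 genes of each list, those of smallest p, and a set of genes including all tubulins. Genes outside it are said to be so. Counting error alone sets the floor of 3 counts.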

Additional observations from a re-analysis of the deposited data

Results flagged for a closer look

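For 5 genes the docetaxel effect on the log2 scale differed between the vectors by a test of the difference, and all 5 differences were positive, with a larger effect under IL27v than under EV. For Sprr1b the difference was 12.08, from 12.36 under IL27v and 0.29 under EV. For Sprr2g it was 10.97, from 11.62 under IL27v and 0.65 under EV. For Gjb6 it was 8.15, from 8.19 under IL27v and 0.05 under EV. For Casz1 it was 7.72, from 6.52 under IL27v and -1.20 under EV. For Spns2 it was 3.74, from 2.71 under IL27v and -1.03 under EV. In each case both IL27v docetaxel libraries exceeded both IL27v media libraries. The 5 genes were picked by a test that includes the IL27v docetaxel change, so this order follows largely from the selection. It is not separate evidence for the differences. The 2 IL27v docetaxel libraries held 4255 and 4352 CPM of keratinocyte markers, against 2.36 and 5.93 CPM in the EV docetaxel libraries. The part of those markers in the 5 differences was not tested.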

How the results depend on the processing

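The 683 calls of docetaxel against media were 747 with RLE scaling, 896 with a filter at 1 CPM in 2 libraries, 717 without ribosomal RNA genes, 912 with IL27v libraries only and 464 with the docetaxel and media libraries of both vectors. They moved further with DESeq2 (1974), no filter on low counts (1886), only the 4 libraries compared (90), a fold threshold of 1.5 (341) and the GC trend removed (265), and ran from 78 without media 1 to 1060 without media 2. The fit with the GC trend removed was added after seeing the data. The median log2 fold change over all genes stayed at 0 there, and the median of the per-gene shifts from the main fit was 0.104. The 5 calls of the difference between vectors became 247 with DESeq2, 531 with no filter and 3 with the stricter filter, and ran from 0 to 61 with 1 library left out. The 312 calls against the other IL27v exposures became 949 with no filter and 180 with IL27v libraries only, and ran from 76 without docetaxel 1 to 406 without anti-PD-L1 1. The deviations of docetaxel and media libraries of the same number from their group means had a correlation of 0.0129. With 2 libraries a side it rests on 1 difference within each group. It therefore cannot show whether replicate numbers mark a shared animal or day. With replicate number as a block the 3 counts were 514, 0 and 263. Of 99 named genes that were called, 92 kept the call with DESeq2, 51 with the GC trend removed, 28 without media 1, 66 without media 2, 38 without docetaxel 1 and 61 without docetaxel 2.

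Signs on the log2 scale turned with the GC trend removed for Tuba1b (-0.49), Tuba1c (-0.44), Ttc5 (0.15), Abcb1b (0.15) and Sesn2 (-0.38). With 1 library left out the values ran from -0.23 to 0.48 for Tuba1b, -1.99 to 0.52 for Tubb4a, -0.33 to 0.0049 for Ttc5, -1.18 to 0.12 for Mki67, -5.12 to 1.53 for Gzmb, -1.63 to 0.50 for Cd274, -7.51 to 4.28 for Ifng and -3.42 to 0.51 for Acta1. Of these, only Sesn2 had been called. The cause was not tested. The difference between vectors could not be fitted with IL27v libraries only, and the comparison with the other exposures was not run with only the groups compared. At this depth T-cell markers lay near the limit of detection.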

Other observations

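Between the docetaxel libraries, 17 of the 660 raised genes were over 10 times higher in docetaxel 1 than in docetaxel 2, and 2 were over 10 times higher in docetaxel 2. Of the 660, 223 exceeded in both docetaxel libraries all 9 other IL27v libraries, and 306 exceeded all 12 EV libraries. The 660 were picked as higher than media, whose libraries are among those 9. Neither count was taken over all genes tested, so neither can be set against a background share. Among the 7 libraries of the other IL27v exposures, cabozantinib 2 was the highest for 40.9% of the 660 genes and for 22.1% of all genes tested, and anti-PD-L1 1 was the highest for 24.4% of the 660 and for 15.2% of all genes. Across all 24440 genes, Spearman's rho between libraries was 0.942 for docetaxel 1 and 2, 0.935 for media 1 and 2 and 0.888 to 0.915 between a docetaxel and a media library, and genes are not independent replicates.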
